A study of Mus musculus with 9 samples.

Results

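Collagens, laminins and integrins build and read the extracellular matrix. Fibril-forming collagens give tissues their tensile strength, collagen IV and the laminins are the 2 networks of the basement membrane under epithelia and around vessels, and integrins are paired alpha and beta receptors that hold cells to these proteins and signal from them. In the pharyngeal apparatus, the embryonic region from which the jaw muscles, pharyngeal glands and great vessels form, mesoderm cells migrate along and between such matrices before they enter the heart and the branchiomeric muscles. The genes examined here were the 41 named collagen (20), laminin (8) and integrin (13) genes among 22225 protein-coding genes of the mouse annotation, and the readout was the number of open chromatin peaks at each of them. All 41 were found in the annotation of build NCBIM37 (mm9). A peak was counted for a gene when its midpoint lay in the gene body or within 20 kb of it. A peak within 1 kb of an annotated transcription start site (TSS) of the gene was called an own-promoter peak, and a peak more than 1 kb from every annotated TSS of any gene was called distal.

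The peaks came from 9 ATAC-seq libraries, an assay in which a transposase cuts accessible DNA, made from GFP-positive cells that were sorted from pooled Swiss Webster embryos at embryonic day 9.5. All embryos carried the Rosa26-GFPflox/+ reporter, so the sorted cells were those in which Cre had been active and their descendants. Tbx1-Cre Ctrl embryos (Tbx1Cre;Rosa26-GFPflox/+, 3 libraries) carried Cre in 1 of their 2 Tbx1 copies, a knock-in that disrupts that copy, and were therefore heterozygous for Tbx1. Tbx1-Cre cKO embryos (Tbx1Cre/flox;Rosa26-GFPflox/+, 3 libraries) lost the other copy in Cre-active cells. Mesp1-Cre Ctrl embryos (Mesp1Cre;Rosa26-GFPflox/+, 3 libraries) had both copies. Tbx1-Cre marks pharyngeal endoderm, ectoderm and otic cells besides mesoderm, whereas Mesp1-Cre marks early mesoderm, so the 2 controls differ in the cells sorted, and their labels give different dissections as well (pharyngeal apparatus and heart for Mesp1-Cre, the same with back for Tbx1-Cre). The questions were which of these loci were open in cells with and without Tbx1, and which were open in the Tbx1 lineage as against the Mesp1 lineage.

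The peak lists differed in length before any gene was considered. Tbx1-Cre Ctrl libraries held 43298 to 49490 peaks, cKO libraries 19772 to 29251 and Mesp1-Cre Ctrl libraries 25485 to 42650. The longest of the last group, Mesp1-Cre Ctrl 1, has a length that is not among those the study lists for its Mesp1-Cre libraries, whereas the other 2 are, so comparisons with this group are also given without it. The lists hold no scores and no read counts, so read depth is unknown and the number of libraries and the list length set the precision. Tbx1-Cre Ctrl 1, the longest list, stood apart from the other 2 at these loci: it alone held 47 of the 325 merged peak regions in the members' windows (14.5%, against 9.57% of all merged regions), while 19 distal regions were held by Ctrl 2 and Ctrl 3 and no other library (7.98% of the members' distal regions, against 4.68% of all). Markers of other cell types were read at their promoters. Of 14 epithelial markers, 5 to 7 had a promoter peak in Tbx1-Cre Ctrl, 2 in each cKO library and 5 or 6 in Mesp1-Cre Ctrl, with Cldn6 and Trp63 at 0 in all 9. Of 11 annotated mesoderm markers, 9 or 10 had one in Tbx1-Cre Ctrl, 6 to 8 in cKO and 7 to 10 in Mesp1-Cre Ctrl, with Tbx5 at 0 throughout. Otic markers (6) had 3 or 4, 2 or 3, and 2 to 5, with Oc90 at 0; endothelial markers (7) had 3 or 4, 2, and 2 to 4, with Pecam1, Cdh5 and Tie1 at 0. Neural crest markers had 2 of 4 in every library, with Sox10 and Foxd3 at 0, and of 5 blood markers only Mesp1-Cre Ctrl libraries had any, at most 2, with Gata1, Klf1 and Hbb-bh1 at 0. Some mesoderm markers thus had an open promoter in every library, as did some markers of other lists, while the genes named at 0 had none, and the part of other cell types in the counts below was not tested. In such mixed cells, fewer cells with an open region and a region less open in each cell cannot be told apart.

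In total, the members had fewer peaks without Tbx1, most of the difference lying outside promoters. The whole lists differed likewise, with distal peaks making up 63.9% to 66.1% of a list in Tbx1-Cre Ctrl and 37% to 50.7% in cKO. Among the peaks in the members' windows these shares were 64.5% to 66.7% and 45.5% to 54.1%. Distal peaks in the members' windows, each counted once, numbered 158, 131 and 136 in Tbx1-Cre Ctrl 1 to 3, then 72, 46 and 38 in cKO 1 to 3, and 106, 47 and 66 in Mesp1-Cre Ctrl 1 to 3. Every cKO library lay below every Tbx1-Cre Ctrl library, as did every Mesp1-Cre Ctrl library. Own-promoter peaks summed over the members were 67, 48 and 51 in Tbx1-Cre Ctrl, 47, 40 and 30 in cKO and 47, 40 and 42 in Mesp1-Cre Ctrl, a smaller difference that also left no overlap. The members' share of all distal peaks of a library was not lower in cKO: it was 0.491%, 0.473% and 0.438% in Tbx1-Cre Ctrl and 0.486%, 0.449% and 0.519% in cKO, so these ranges overlapped. In Mesp1-Cre Ctrl the share was 0.4%, 0.392% and 0.415%, below all 3 Tbx1-Cre Ctrl libraries.

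**Figure D1:**
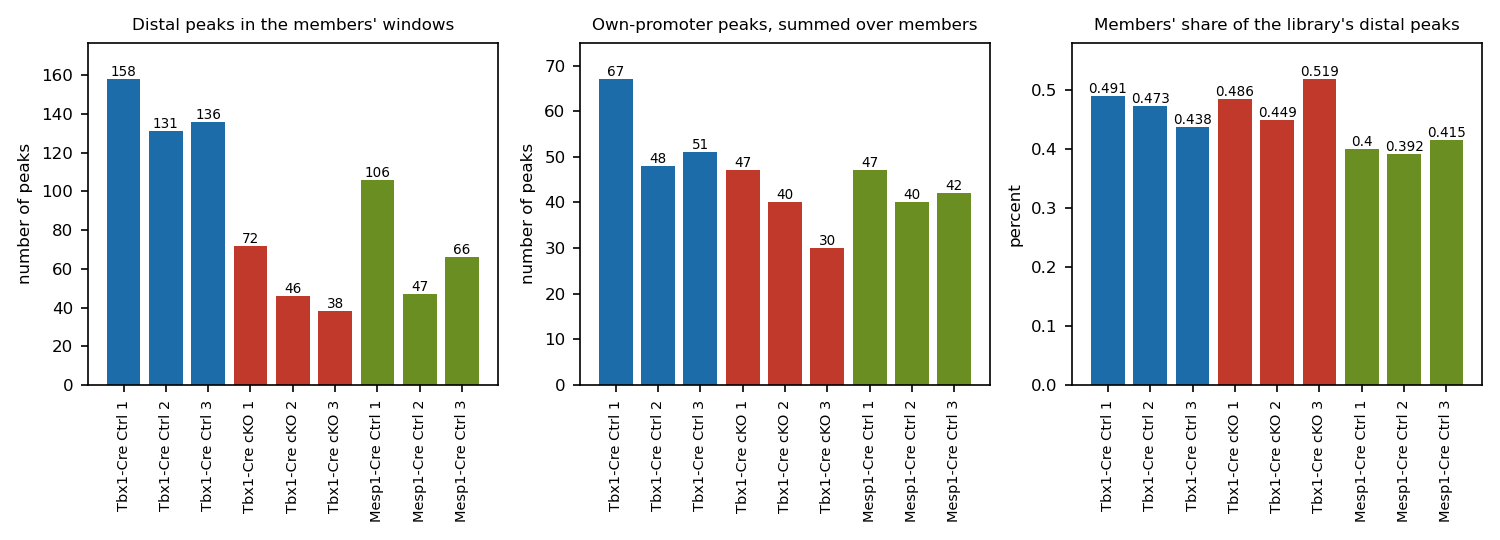
Bars give, for each of the 9 libraries (blue, Tbx1-Cre Ctrl; red, Tbx1-Cre cKO; green, Mesp1-Cre Ctrl), the number of distal peaks in the members' windows, the number of own-promoter peaks summed over the 41 members, and the members' percentage of the library's distal peaks. Distal peaks number 131 to 158 in Tbx1-Cre Ctrl and 38 to 72 in cKO, while the percentages of both Tbx1-Cre groups overlap.

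Gene by gene, 18 of the 41 members (43.9%) had fewer peaks of any class in every cKO library than in every Tbx1-Cre Ctrl library, against a background of 19.0% of 18689 genes with a peak. For distal peaks alone the count was 14 of the 38 members that had one (36.8%), against 20.3% of 14340 genes. None had more distal peaks in every cKO library, and 0.0697% of genes did. At 36 of the 38 members, and at 86.3% of genes, the cKO libraries had the lower mean. The median difference was -1.67 distal peaks for the members and -0.667 for all genes. These shares were read together with size, because the members are long: their median window was 153.9 kb, against 55.5 kb for all genes, and a gene with more peaks can more easily show a separation. Among genes averaging at least 2 distal peaks over the 6 libraries, 11 of 19 members (57.9%) and 47.0% of 2829 genes were separated. With 3 libraries a group an exact two-sided permutation test has 20 relabellings and cannot give a p below 0.1, which each of the separated members reached, so no single gene passes a threshold of 0.05. Counted per 10000 peaks of the library, 6 members (15.8% of 38) stayed separated, beside 12.7% of genes. They were Col4a6, Col5a1, Col13a1, Col18a1, Lamc1 and Itga5, and the other 8 were no longer apart. Scaling cannot undo a separation where every cKO library has 0 distal peaks, as at Col4a6 and Lamc1. With an equal number of the widest peaks from each list 4 of 32 were separated, beside 2.31% of genes. Only 3 of these were among the 14, namely Col13a1, Lamc1 and Itga9.

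**Figure D2:**
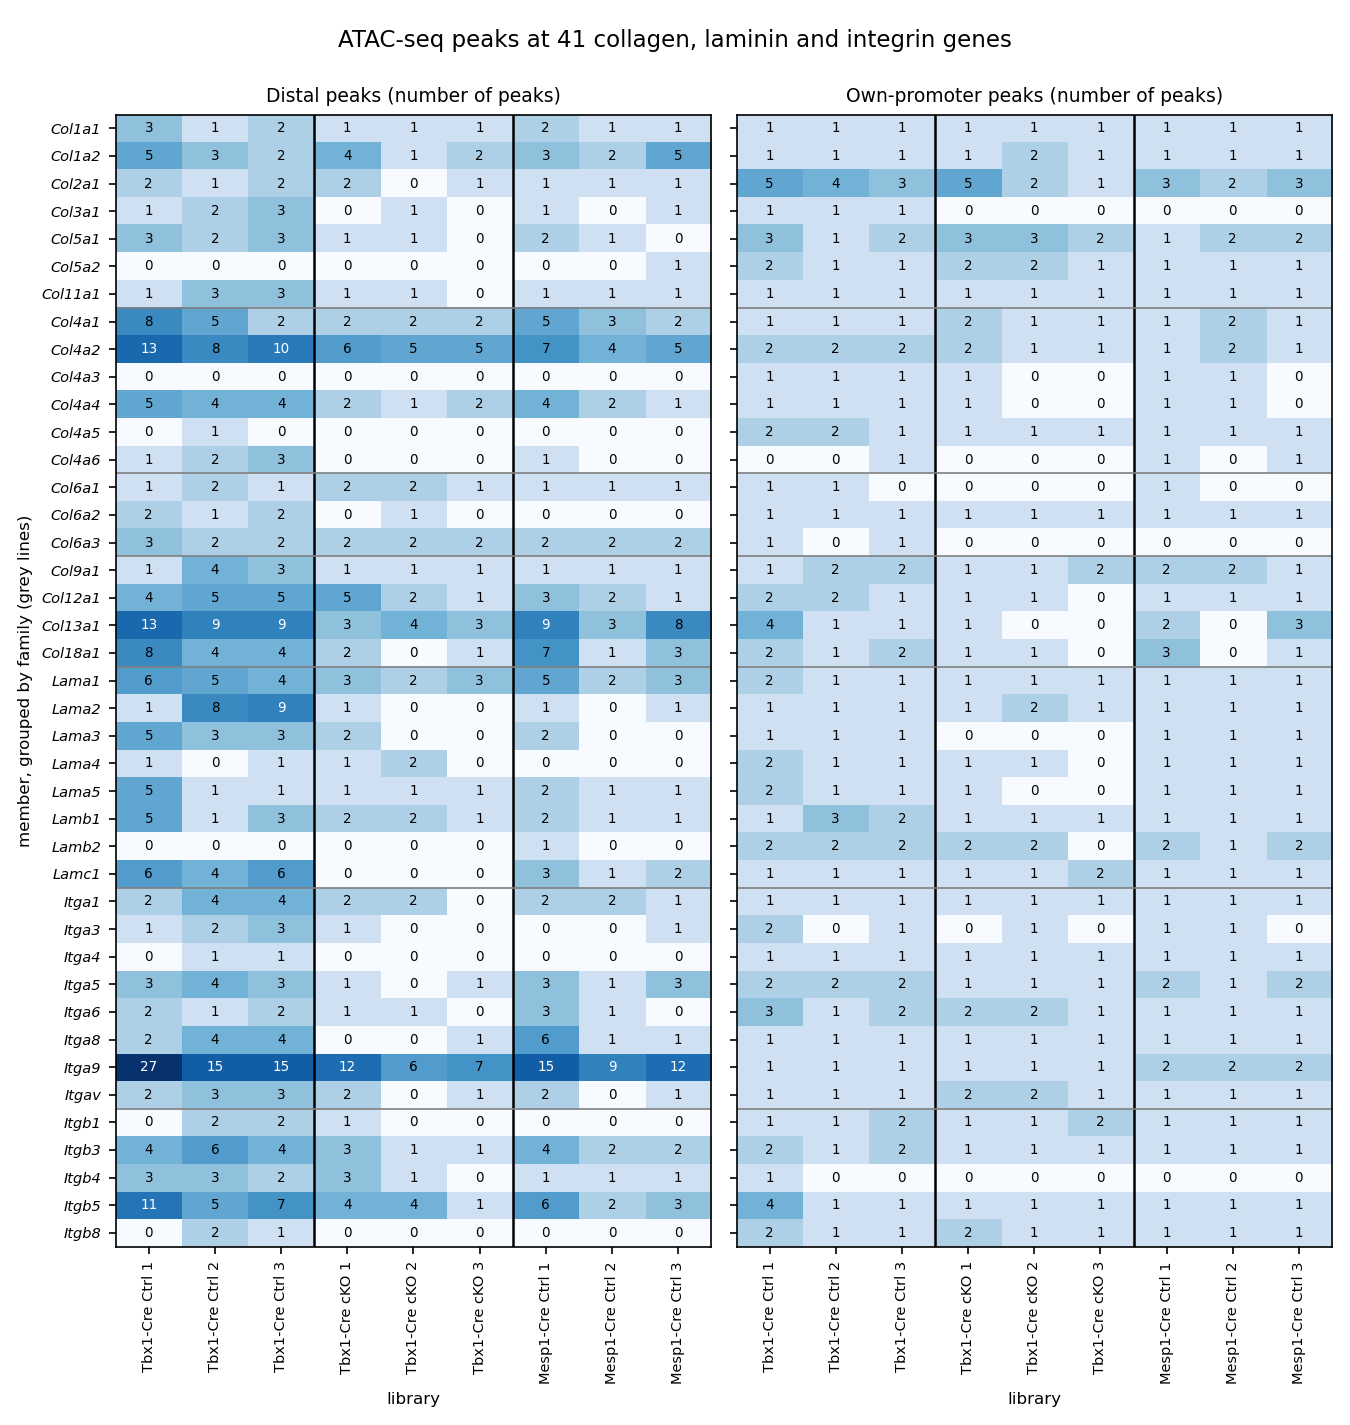
Each cell gives the number of distal peaks (left) and own-promoter peaks (right) at 1 member (rows, grouped by family) in 1 library (columns, 3 for each group, parted by black lines), with darker blue for more peaks. Itga9, Col13a1 and Col4a2 hold the most distal peaks, the Lamc1 row is empty of distal peaks in all 3 cKO libraries, and most own-promoter cells hold 1 or 2 peaks in every group.

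Itga9, which encodes the alpha 9 chain of a receptor for tenascin and other matrix ligands, had the largest difference in counts. Its gene body spans chr9:118515808-118810121. Distal peaks numbered 27, 15 and 15 in Tbx1-Cre Ctrl, 12, 6 and 7 in cKO and 15, 9 and 12 in Mesp1-Cre Ctrl. Tbx1-Cre Ctrl 1 was far above the other 2, yet even these lay above all cKO libraries (means 19.0 ± 6.93 and 8.33 ± 3.21, SD, n = 3; exact permutation p = 0.1). Per 10000 peaks of the library the difference was -0.657 and the groups overlapped, and it was smaller than at Lamc1 (-1.14), Col13a1 (-0.804) and Col18a1 (-0.734). The Mesp1-Cre Ctrl libraries overlapped with Tbx1-Cre Ctrl at a count of 15. Among the alpha chains, Itga8, the partner of the beta 1 chain in binding nephronectin, had 2, 4 and 4 distal peaks in Tbx1-Cre Ctrl, 0, 0 and 1 in cKO and 6, 1 and 1 in Mesp1-Cre Ctrl. Itga5, the alpha chain of the classical fibronectin receptor, had 3, 4 and 3, then 1, 0 and 1, then 3, 1 and 3. Both were separated between the Tbx1-Cre groups, Itga5 also per 10000 peaks, and the Mesp1-Cre Ctrl counts of both overlapped with Tbx1-Cre Ctrl. The 5 other alpha chains overlapped, with Itga4, a receptor chain for fibronectin and VCAM1, having 0, 1 and 1 distal peaks in Tbx1-Cre Ctrl and none elsewhere.

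The beta chain genes Itgb3 and Itgb5, whose products pair with the alpha V chain to bind vitronectin, were separated in counts as well. Itgb5 had 11, 5 and 7 distal peaks in Tbx1-Cre Ctrl, 4, 4 and 1 in cKO and 6, 2 and 3 in Mesp1-Cre Ctrl. At Itgb3 the counts were 4, 6 and 4, then 3, 1 and 1, then 4, 2 and 2. In both genes the highest cKO count was 1 below the lowest Tbx1-Cre Ctrl count, and both separations were lost per 10000 peaks (differences of -0.443 at Itgb5 and -0.366 at Itgb3) and with an equal number of the widest peaks. Itgb1, the beta chain shared by most matrix integrins, had 0, 2 and 2 distal peaks in Tbx1-Cre Ctrl, 1, 0 and 0 in cKO and none in Mesp1-Cre Ctrl, so its groups overlapped. In all, 3 of 8 alpha chain genes and 2 of 5 beta chain genes had fewer distal peaks in every cKO library, beside 20.3% of all genes.

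Among the laminins, Lamc1 stood out. It encodes the gamma 1 chain, which is part of most laminin trimers, and spans chr1:155066052-155179916 on the minus strand. Its distal peaks numbered 6, 4 and 6 in Tbx1-Cre Ctrl, 0, 0 and 0 in cKO and 3, 1 and 2 in Mesp1-Cre Ctrl. All 3 groups were separate, although its promoter was open in all 9 libraries (1 peak in each, 2 in cKO 3). The separation of cKO from Tbx1-Cre Ctrl stood under each of 8 other ways of counting, and that of Mesp1-Cre Ctrl under 7, being lost with an equal number of the widest peaks (a difference of -0.333). With 0 distal peaks in every cKO library, the separation of cKO could not be lost by scaling to 10000 peaks. Lama3, an alpha chain of epithelial laminins, had 5, 3 and 3 distal peaks in Tbx1-Cre Ctrl, 2, 0 and 0 in cKO and 2, 0 and 0 in Mesp1-Cre Ctrl. Lama1, the alpha chain of the early embryonic laminin, had 6, 5 and 4, then 3, 2 and 3, then 5, 2 and 3. Per 10000 peaks the Lama1 difference turned from lower to 0.0523 higher in cKO. Thus 3 of the 7 laminin genes with a distal peak were separated between the Tbx1-Cre groups, beside 20.3% of all genes.

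Lama2, the alpha chain of muscle laminin, differed between replicates. It is the longest member, with a window of 675.7 kb. Its distal peaks numbered 1 in Tbx1-Cre Ctrl 1 but 8 and 9 in Ctrl 2 and 3, against 1, 0 and 0 in cKO and 1, 0 and 1 in Mesp1-Cre Ctrl. Of its 12 distal regions, 5 were held by Ctrl 2 and Ctrl 3 alone. Of the 11 distal regions that either of these 2 libraries held, both held 6, and the groups overlapped only through Ctrl 1 (6.0 ± 4.36 against 0.333 ± 0.577, SD, n = 3; exact permutation p = 0.2). Col9a1, a cartilage collagen chain, also had its lowest Tbx1-Cre Ctrl count in library 1, with 1, 4 and 3 distal peaks in Tbx1-Cre Ctrl and 1 in each of the other 6 libraries. Without Tbx1-Cre Ctrl 1, 24 members in place of 14 had fewer distal peaks in every cKO library, as did 29.4% of genes.

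**Figure D3:**
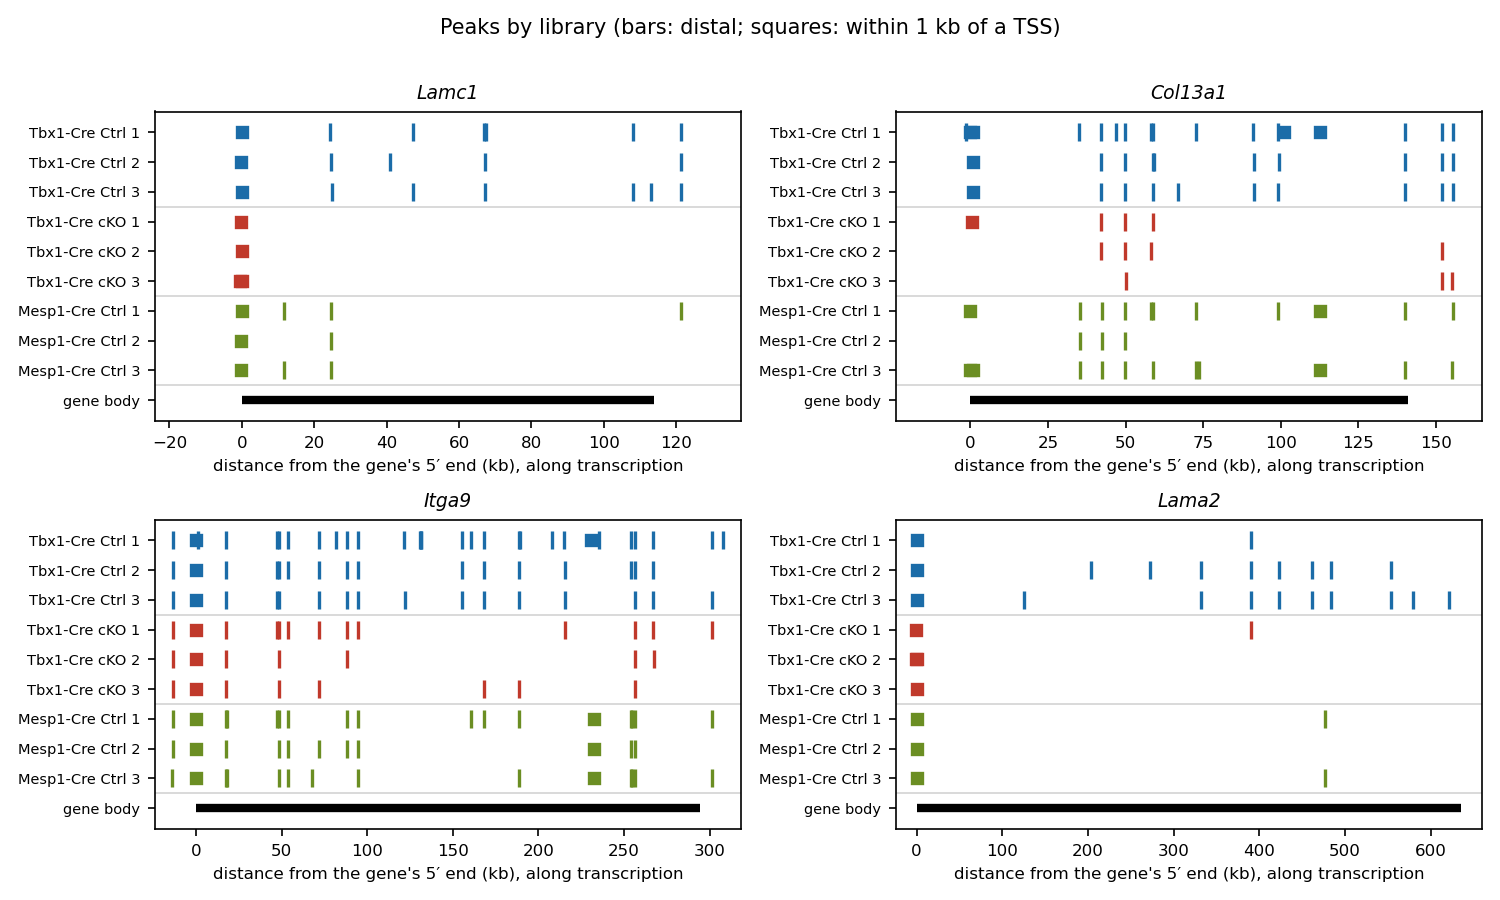
Each panel shows the peaks of the 9 libraries (rows; blue, Tbx1-Cre Ctrl; red, cKO; green, Mesp1-Cre Ctrl) along 1 member, against the distance in kb from the gene's 5′ end in the direction of transcription; bars are distal peaks, squares lie within 1 kb of any TSS, and the black line is the gene body. The cKO rows of Lamc1 hold promoter squares only, Lama2 has 8 and 9 distal peaks in Ctrl 2 and Ctrl 3 and at most 1 in any other library, and Itga9 has a square near its 3′ end in the 3 Mesp1-Cre Ctrl rows, beside which the square of Ctrl 1 marks a separate peak near a TSS of the gene Gm10157.

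Among the collagens, Col13a1 and Col4a2 had the largest differences in counts. Col13a1 encodes a transmembrane collagen of cell adhesions and neuromuscular junctions. Its distal peaks numbered 13, 9 and 9 in Tbx1-Cre Ctrl, 3, 4 and 3 in cKO and 9, 3 and 8 in Mesp1-Cre Ctrl. The Tbx1-Cre groups were 5 peaks apart at their nearest (10.3 ± 2.31 and 3.33 ± 0.577, SD, n = 3; exact permutation p = 0.1), a call that stood under each of 8 other ways of counting. Col18a1, a basement membrane collagen and the source of endostatin, had 8, 4 and 4 distal peaks, then 2, 0 and 1, then 7, 1 and 3. Col4a2, the alpha 2 chain of collagen IV, had 13, 8 and 10, then 6, 5 and 5, then 7, 4 and 5, and here both other groups lay below Tbx1-Cre Ctrl. Its cKO difference depended on the list length, as it came to 0.0194 higher per 10000 peaks.

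The collagen IV genes lie in head-to-head pairs that share a promoter or lie close together. Col4a4 had 5, 4 and 4 distal peaks in Tbx1-Cre Ctrl, 2, 1 and 2 in cKO and 4, 2 and 1 in Mesp1-Cre Ctrl, whereas its neighbour Col4a3 had none in any library. Col4a6 had 1, 2 and 3, then 0 in each cKO library, then 1, 0 and 0, and its neighbour Col4a5 had 1 in Tbx1-Cre Ctrl 2 alone. Col4a1 overlapped, with 8, 5 and 2 against 2 in each cKO library. In cKO, 3 of the 5 network collagens with a distal peak, 2 of 4 other collagens, none of 3 collagen VI genes and 1 of 6 fibril-forming collagens were separated. Of all genes 20.3% were, and 47.0% of those averaging at least 2 distal peaks. Windows spanned 154.4 to 348.7 kb in the network collagens and 56.8 to 230.2 kb in the fibril-forming ones. A difference between families apart from size was not tested. The separated fibril-forming gene was Col5a1, which nucleates collagen I fibrils, with 3, 2 and 3 distal peaks, then 1, 1 and 0, then 2, 1 and 0.

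There were 5 members without a lower distal mean in cKO. Col6a1, a chain of the microfibrillar collagen VI, had 1, 2 and 1 distal peaks in Tbx1-Cre Ctrl, 2, 2 and 1 in cKO and 1 in each Mesp1-Cre Ctrl library. Lama4, a laminin chain of blood vessels, had 1, 0 and 1, then 1, 2 and 0, then none. Both overlapped widely. Col4a3, Col5a2 and Lamb2 had no distal peak in either Tbx1-Cre group, and in Mesp1-Cre Ctrl Col5a2 had 1 in library 3 and Lamb2 had 1 in library 1. Col5a2 was also the only member whose count over all classes averaged higher in cKO (2, 2 and 1, against 2, 1 and 1).

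Per length of window, the density of distal peaks varied widely among the members. Averaged over the 9 libraries it was highest at Col4a2 (3.97 per 100 kb), Itga9 (3.92) and Col1a2 (3.91), which encodes the alpha 2 chain of collagen I. Col1a2, with 5, 3 and 2 distal peaks in Tbx1-Cre Ctrl, 4, 1 and 2 in cKO and 3, 2 and 5 in Mesp1-Cre Ctrl, did not separate any groups. The lowest densities were at Col4a3 (0), Col4a5 (0.0438) and Col5a2 (0.0658). Col4a5 and Col5a2 had an own-promoter peak in all 9 libraries and Col4a3 in 6.

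**Figure D4:**
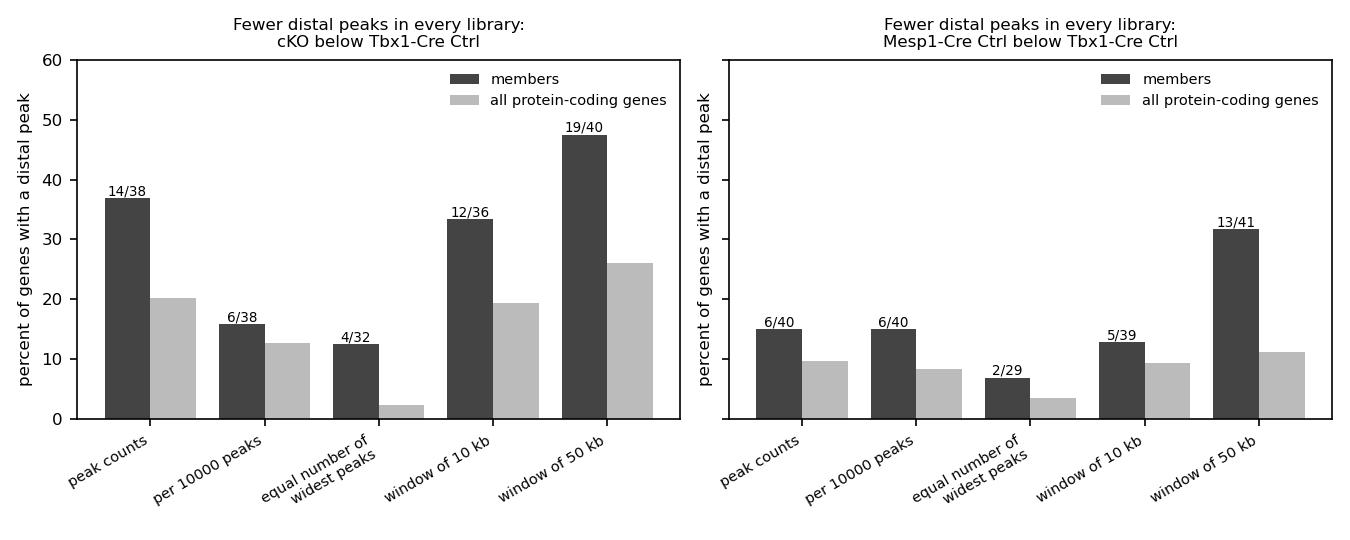
Black bars give the percentage of members, and grey bars of all protein-coding genes with a distal peak, that had fewer distal peaks in every library of cKO (left) or of Mesp1-Cre Ctrl (right) than in every Tbx1-Cre Ctrl library, under 5 ways of counting; the numbers are members separated over members with a distal peak. The members' bar in the left panel drops from 14 of 38 to 6 of 38 when counts are taken per 10000 peaks, and in the right panel it is 6 of 40 under both.

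Other genes of matrix and adhesion gave comparable shares in cKO. Of 16 other matrix and basement membrane proteins, 8 had fewer distal peaks in every cKO library. Integrin-linked receptors and adaptors gave 8 of 16. Collagen-modifying enzymes and chaperones gave 4 of 11 and the collagen, laminin and integrin genes outside the 41 gave 6 of 20. No gene of these 4 lists had more distal peaks in every cKO library. The lists are described by these counts only, beside the 20.3% of all genes and the 47.0% of genes averaging at least 2 distal peaks. The size of the genes in these lists was not taken into account.

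Between the lineages, 6 of 40 members (15.0%) had fewer distal peaks in every Mesp1-Cre Ctrl than in every Tbx1-Cre Ctrl library, against 9.60% of 14892 genes. None had more, and 0.436% of genes did. Besides Col4a2, Lama3 and Lamc1, already given, the 6 members were Col6a2, Col12a1 and Itgb4. Col12a1, a fibril-associated collagen, had 4, 5 and 5 distal peaks in Tbx1-Cre Ctrl and 3, 2 and 1 in Mesp1-Cre Ctrl, with 5, 2 and 1 in cKO. Col6a2, a second chain of collagen VI, had 2, 1 and 2, then 0 in each, with 0, 1 and 0 in cKO. Itgb4, the beta chain of the epithelial hemidesmosome, had 3, 3 and 2, then 1 in each, with 3, 1 and 0 in cKO. The 14 epithelial markers had a promoter peak at 5 to 7 genes in Tbx1-Cre Ctrl and at 5 or 6 in Mesp1-Cre Ctrl. The part of cell types in the differences at these 6 members was not tested. Among genes averaging at least 2 distal peaks, 4 of 19 members (21.1%) and 17.4% of 3525 genes were separated. The other lists gave 4 of 16 matrix proteins, 0 of 12 enzymes and chaperones, 2 of 20 further family members and 3 of 16 adaptors. Both comparisons use the same Tbx1-Cre Ctrl libraries, so they are not independent. Leaving out Tbx1-Cre Ctrl 1 or Mesp1-Cre Ctrl 1, the longest list of its group, raised the 6 to 17 in either case (42.5% of members, against 15.8% of genes, and 43.6%, against 22.2%), and leaving out Tbx1-Cre Ctrl 2 raised it to 11 (28.2%, against 17.6%).

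Promoters of the members were open in more libraries than their distal regions. An own-promoter peak was present in all 9 libraries at 26 of 41 members (63.4%), against 73.7% of the 14690 genes that had one in any library, in 5 to 8 libraries at 10 and in 1 to 4 at 5, and no member lacked one throughout. Fewer own-promoter peaks in every cKO library were found at 3 members (7.32%), against 3.61% of 14507 genes, and more at none, against 0.255%. These 3 were Col3a1, Lama3 and Itga5. Col3a1, the collagen III chain of extensible tissues, had 1 own-promoter peak in each Tbx1-Cre Ctrl library, none in cKO and none in Mesp1-Cre Ctrl. Its shared part lay at chr1:45368567-45368767, 284 bp from the TSS, and a single cKO library had a peak nearby, 944 bp from it. At the Lama3 promoter, 1 peak was present in each Tbx1-Cre Ctrl and each Mesp1-Cre Ctrl library and in no cKO library, the nearest cKO peak being 27969 bp away. This was the only member promoter region held by all libraries of both controls and by none of cKO. At Itga5 the count was 2 in each Tbx1-Cre Ctrl library, 1 in each cKO library and 2, 1 and 2 in Mesp1-Cre Ctrl. Per 10000 peaks Itga5 was no longer separated (a difference of -0.00929). Col3a1 and Lama3 were, but scaling cannot change this where every cKO count is 0. With an equal number of the widest peaks none of the 3 was separated (differences of 0 at Col3a1, -0.333 at Lama3 and -1 at Itga5). The 3 became 6 without Tbx1-Cre Ctrl 2 (14.6%, against 5.87% of genes), 6 without Tbx1-Cre Ctrl 3 (15.0%, against 5.48%) and 9 without cKO 1 (of 41, against 6.91%).

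Between the lineages 1 member had fewer own-promoter peaks in Mesp1-Cre Ctrl (Col3a1, above; 2.44%, against 1.57% of 14647 genes) and 1 had more (2.44%, against 0.218%). The latter was Itga9, with 1 peak in each Tbx1-Cre Ctrl and cKO library and 2 in each Mesp1-Cre Ctrl library. The added peak lay in an intron, 539 bp from the start of an inner transcript, with widths of 701, 657 and 680 bp in the 3 Mesp1-Cre Ctrl libraries. With promoters of 2 kb in place of 1 kb the difference of Itga9 turned from 1 peak higher to 0.333 lower, so its direction rests on that limit. With the gene's 5′ end as its only TSS the difference was 0, so the call also rests on counting the inner start. With an equal number of the widest peaks it was 0.667 and the groups were not separated. Without Mesp1-Cre Ctrl 1 both counts stayed at 1, against 3.92% and 0.571% of genes. The count of members with fewer own-promoter peaks became 2 without Tbx1-Cre Ctrl 1 (of 40, against 2.62% of genes), 4 without Tbx1-Cre Ctrl 2 (9.76%, against 3.13%), 4 without Tbx1-Cre Ctrl 3 (against 2.92%) and 2 without Mesp1-Cre Ctrl 2 (4.88%, against 1.80%).

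Where a member kept an own-promoter peak in every library, the widest was on average narrower in cKO, although the groups overlapped at 13 of 26 members. This measure was taken at the 26 members with an own-promoter peak in every library, as the width of the widest one. For a member with several starts, the widest peak can lie at different starts in different libraries. At Itga9 the widths in Mesp1-Cre Ctrl 2 and 3 (657 and 680 bp) equal those of the peak near its inner start. The median width over these members was 945.5, 836 and 917.5 bp in Tbx1-Cre Ctrl, 637, 536.5 and 512 bp in cKO and 884.5, 662.5 and 681 bp in Mesp1-Cre Ctrl. Every cKO median was below every Tbx1-Cre Ctrl median, and over the 10827 genes of the same kind the medians were 896, 855 and 895 bp, then 721, 727 and 629 bp, then 847, 698 and 778 bp. The mean width was lower in cKO at all 26 members and at 95% of the genes. All cKO widths lay below all Tbx1-Cre Ctrl widths at 13 of 26 members, against 39.0% of genes, and at the median member the cKO width was 0.674 of the Tbx1-Cre Ctrl width, against 0.798 for the median gene. For Mesp1-Cre Ctrl the count was 10 members (38.5%), against 17.8%, and the ratio 0.836, against 0.892, and without Mesp1-Cre Ctrl 1 the count was 14 (53.8%, against 38.1%). Col4a1 and Col4a2, which share 1 promoter, are both among the 26. Their widths are the same in every library except Tbx1-Cre Ctrl 2 (214 and 749 bp), so the 26 are not all separate promoters. The peak of 749 bp was counted for Col4a2 alone. Through that value Col4a2 was separated in cKO and in Mesp1-Cre Ctrl, whereas Col4a1 overlapped in both. Peak width depends on read depth and on the caller as well as on the promoter, and its share from each was not tested.

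Single members differed strongly in this respect. Itgav, the alpha V chain, had widths of 1470, 1438 and 1688 bp in Tbx1-Cre Ctrl and 818, 781 and 845 bp in cKO, with 1426, 973 and 1435 bp in Mesp1-Cre Ctrl. Col5a2, a chain of fibrillar collagen V, had 838, 1294 and 1126 bp, then 474, 328 and 265 bp, then 1489, 840 and 836 bp. At both, cKO lay below the 2 controls, which overlapped at Col5a2 and were narrowly apart at Itgav. At Itgb1 the Tbx1-Cre groups overlapped through cKO 2, with 1410, 1382 and 1396 bp in Tbx1-Cre Ctrl, 1197, 1400 and 1266 bp in cKO and 1368, 1326 and 1374 bp in Mesp1-Cre Ctrl, all narrowly below Tbx1-Cre Ctrl. These 3 genes were chosen after their values were seen.

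**Figure D5:**
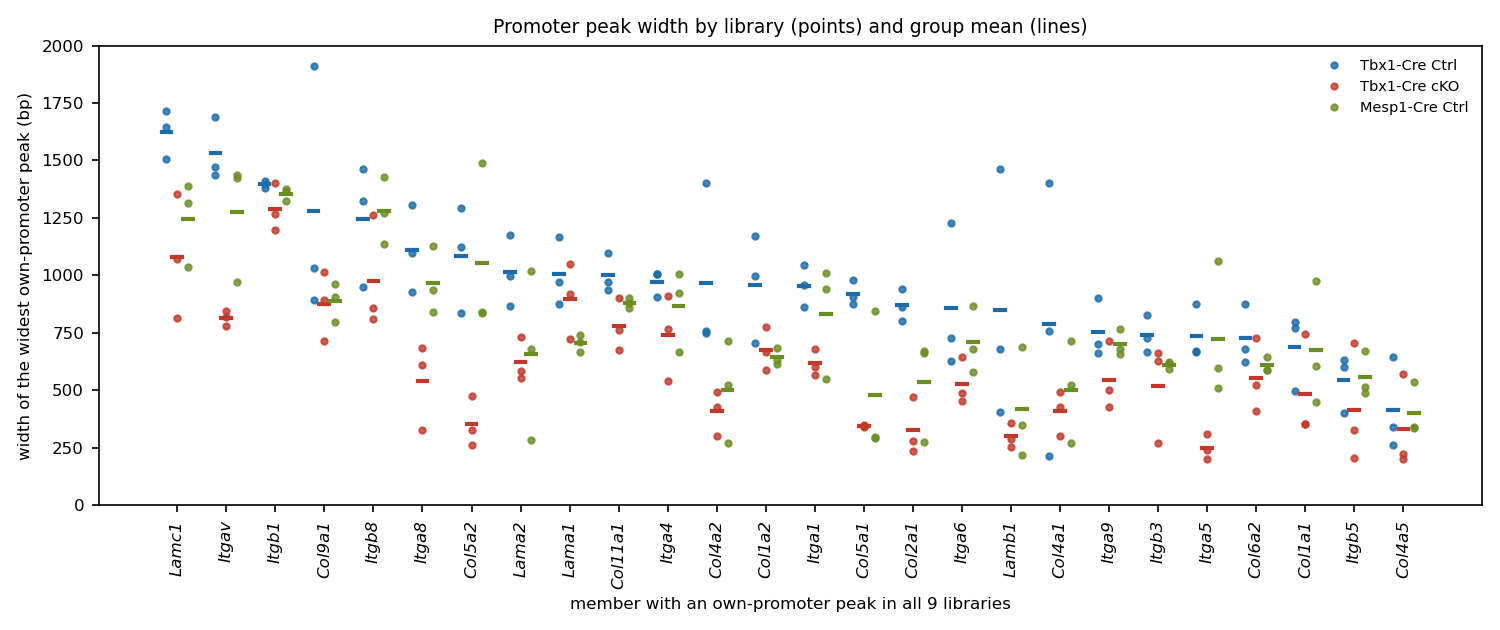
Points give the width in bp of the widest own-promoter peak in each library, and short lines the mean of each group of 3 libraries (blue, Tbx1-Cre Ctrl; red, cKO; green, Mesp1-Cre Ctrl), for the 26 members with such a peak in all 9 libraries, ordered by the Tbx1-Cre Ctrl mean. The red mean is below the blue mean at every member, with no overlap of the points at 13, for example Itgav, Col5a1 and Itga5, and overlap at the others, for example Itgb1, Itgb5 and Col4a5.

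The same data were then read region by region, merging overlapping peaks of the 9 libraries. The members' windows held 325 of 73341 merged regions, of which 238 were distal and 6 lay in the windows of 2 members. Of the 298 with a peak in a Tbx1-Cre library, 27 were held by all 3 Tbx1-Cre Ctrl and no cKO library (9.06%, against 7.62% of 64754), and among distal ones 21 of 215 (9.77%, against 9.30% of 47217). No member region was held by all 3 cKO libraries and no Tbx1-Cre Ctrl library. All 3 Tbx1-Cre Ctrl and no Mesp1-Cre Ctrl library held 28 of 322 (8.70%, against 5.69% of 72084). The other 6 regions of the cKO pattern were promoter regions (7.23% of 83, against 3.10% of 17537). All 9 libraries held 57 member regions, of which 38 were promoter regions (43.7% of 87, against 56.8% of all promoter regions) and 19 distal (7.98%, against 5.99%). Without Tbx1-Cre Ctrl 1 the 27 became 48 (20.3%, against 15.8% of all regions) and the 28 became 48 (17.7%, against 11.2%). Without cKO 1 the 27 became 47 (15.9%, against 12.7%), and without Mesp1-Cre Ctrl 1 the 28 became 40 (12.9%, against 10.2%).

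The regions that mark each pattern are shown as 200 bases centred on the part common to the libraries that hold them, on the plus strand of NCBIM37, with capitals for any of 6 motifs searched on both strands (GGTGTGA as a T-box half-site, AGATAA as a GATA-factor motif, GGAATG as a TEAD motif, CATCTG as an E-box, ACAAAG as a SOX motif and GGGCGG as a GC box). A match is a run of letters and not a known binding site, and motifs may overlap. The first 2 were the only distal member regions held by all 3 Tbx1-Cre Ctrl and all 3 Mesp1-Cre Ctrl libraries and by no cKO library. The Itga8 region lies in an intron 2217 bp from a TSS of the gene. Its peak widths were 692, 952 and 970 bp in Tbx1-Cre Ctrl and 399, 279 and 616 bp in Mesp1-Cre Ctrl, and the nearest cKO peak was 34458 bp away. The Lamc1 region lies in an intron 24654 bp from a TSS of the gene, with widths of 929, 200 and 593 bp and of 330, 199 and 207 bp, and the nearest cKO peak was 23956 bp away. Several of these Lamc1 widths are the narrowest the lists contain. Neither window held any of the 6 motifs.
Itga8, chr2:12112622-12112821: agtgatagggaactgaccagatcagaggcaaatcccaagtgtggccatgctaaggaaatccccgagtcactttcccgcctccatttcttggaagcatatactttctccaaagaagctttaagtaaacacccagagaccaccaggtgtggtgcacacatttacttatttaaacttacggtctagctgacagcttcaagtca
Lamc1, chr1:155155162-155155361: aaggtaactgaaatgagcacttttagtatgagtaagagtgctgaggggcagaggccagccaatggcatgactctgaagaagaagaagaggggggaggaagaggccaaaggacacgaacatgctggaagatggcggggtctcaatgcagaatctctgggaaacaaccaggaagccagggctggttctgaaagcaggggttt

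The next 2 were the widest distal member regions held by all Tbx1-Cre Ctrl libraries and by no library of cKO or Mesp1-Cre Ctrl, a pattern shown by 12 of the 238 (5.04%, against 3.85% of all distal regions). The Itgb3 region, in an intron 12265 bp from a TSS of the gene, had widths of 618, 553 and 616 bp, and a cKO peak lay 596 bp from it. At Col5a1 the region, in an intron 45875 bp from a TSS of the gene, had widths of 709, 572 and 451 bp and its nearest cKO peak was 22614 bp away. The Itgb3 window held 1 match to the E-box letters CATCTG, which were present in 19.2% of all distal windows. Other forms of an E-box were not searched.
Itgb3, chr11:104486338-104486537: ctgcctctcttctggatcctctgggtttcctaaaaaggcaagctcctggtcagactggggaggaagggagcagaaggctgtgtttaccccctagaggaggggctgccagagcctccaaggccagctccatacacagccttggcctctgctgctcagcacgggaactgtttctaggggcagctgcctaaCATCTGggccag
Col5a1, chr2:27787720-27787919: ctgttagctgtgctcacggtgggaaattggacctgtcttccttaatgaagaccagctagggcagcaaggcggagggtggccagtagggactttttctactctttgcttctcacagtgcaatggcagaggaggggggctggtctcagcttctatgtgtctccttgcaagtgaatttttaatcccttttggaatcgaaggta

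For contrast, 2 distal regions were held by all 9 libraries and were the widest of the 19 such member regions. The Itga9 region is intronic, 17649 bp from a TSS of the gene, and its widths were 1149, 1121 and 1318 bp in Tbx1-Cre Ctrl, 723, 877 and 471 bp in cKO and 493, 285 and 286 bp in Mesp1-Cre Ctrl. It was called everywhere, yet no 2 groups overlapped in width except cKO and Mesp1-Cre Ctrl. The Col1a2 region, intergenic and 14818 bp from a TSS of the gene, had widths of 872, 1274 and 1322 bp, then 743, 831 and 735 bp, then 1162, 731 and 818 bp. Neither window held a motif.
Itga9, chr9:118533357-118533556: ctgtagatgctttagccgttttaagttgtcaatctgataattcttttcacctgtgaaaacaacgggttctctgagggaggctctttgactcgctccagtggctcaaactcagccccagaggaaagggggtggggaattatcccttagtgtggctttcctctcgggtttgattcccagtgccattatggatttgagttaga
Col1a2, chr6:4439896-4440095: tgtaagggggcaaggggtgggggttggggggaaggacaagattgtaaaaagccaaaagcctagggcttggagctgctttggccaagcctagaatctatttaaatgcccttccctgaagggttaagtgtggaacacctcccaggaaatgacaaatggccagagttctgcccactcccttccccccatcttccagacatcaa

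The peak near the inner TSS of Itga9, present in all 3 Mesp1-Cre Ctrl libraries and in no Tbx1-Cre library, is shown as the one member promoter region of that pattern and was chosen after its values were seen. Its nearest cKO peak was 16654 bp away. The window held 1 GATA and 1 TEAD motif, found in 3.74% and 7.54% of all promoter windows and in 10.8% and 13.4% of all distal windows. The last sequence is the promoter that Col4a1 and Col4a2 share, whose starts on opposite strands are 21 bp apart. It was open in all 9 libraries and held 2 GC boxes, a motif found in 46.3% of all promoter windows.
Itga9 inner promoter, chr9:118748107-118748306: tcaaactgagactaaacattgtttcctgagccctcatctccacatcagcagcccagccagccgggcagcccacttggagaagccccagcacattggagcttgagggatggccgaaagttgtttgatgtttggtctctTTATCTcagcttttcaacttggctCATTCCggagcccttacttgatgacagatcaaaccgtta
Col4a1 and Col4a2, chr8:11312715-11312914: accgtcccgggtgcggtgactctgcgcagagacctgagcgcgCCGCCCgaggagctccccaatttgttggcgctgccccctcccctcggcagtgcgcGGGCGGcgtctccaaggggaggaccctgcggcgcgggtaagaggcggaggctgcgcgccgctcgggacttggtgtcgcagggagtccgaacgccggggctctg

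Over all 238 distal member windows the T-box half-site was found in 4 (1.68%), against 2.80% of 55118 distal windows, and in none of the 21 held by all Tbx1-Cre Ctrl and no cKO library, against 2.44% of 4390. The other 5 motifs were found in 12.6% (GATA), 16.0% (TEAD), 16.8% (E-box), 17.2% (SOX) and 8.40% (GC box) of the members' distal windows, against 10.8%, 13.4%, 19.2%, 17.4% and 7.59% of all. The absence of these letters from a window of 200 bases says nothing of the factor elsewhere.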

How the data were processed

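ATAC-seq was performed on 3 libraries for each of 3 groups. Per the labels and the study's methods, the authors trimmed reads with cutadapt, aligned them to mm9 with Bowtie2 2.3.4.3, kept uniquely mapped concordant pairs, removed duplicates and mitochondrial reads and called peaks in each library with MACS2. The deposited lists hold chromosome, start and end of each peak and no score, so how much a list depends on read depth and on the caller's threshold cannot be recovered. Mesp1-Cre Ctrl lists start 1 bp differently (narrowest peak 199 bp, elsewhere 200 bp) and their mitochondrial intervals were not used. Each of these lists held 2 such intervals, and the Tbx1-Cre lists held none. The lists of the lineages may thus have been made differently, which cannot be told apart from lineage.

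Peaks were counted with Python 3.11.15, numpy 2.4.6 and pandas 2.3.3 against the GENCODE annotation of NCBIM37 for 22225 protein-coding genes, 1 per symbol, including all alternative starts. A gene was called when every library of a group was below, or above, every library of the other, among genes with a peak of that class in either group. For single genes, group means were compared by exact two-sided permutation. Counting was tested on simulated peaks. Named genes were those called for distal peaks (at most 10 by difference, with ties) or own-promoter peaks, those not lower in cKO, and the densest and sparsest 3. Values of Lama1, Col4a6 and Col5a1, called beyond the tenth place, and of Lama2, Col9a1, Col4a1, Itga4, Itgav and Itgb1 were added after they were seen. The members and lists were chosen with earlier results of these data known. The study's ATAC-seq methods give the pharyngeal apparatus without heart, whereas the labels name the heart. Pool sizes differed between libraries. The study lists fewer embryos for every cKO library than for every Tbx1-Cre Ctrl library, so pool size and genotype cannot be told apart. Labels number libraries 1 to 3 in each group, and the deviations of same-numbered libraries correlated by 0.0326 to 0.371 (Tbx1-Cre Ctrl with cKO) and 0.0534 to 0.44 (with Mesp1-Cre Ctrl), so the numbers were not taken as pairs. Alternatives were the window, promoter size, start sites, overlap rule, list length, replicate block and each library left out.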

Additional observations from a re-analysis of the deposited data

How the results depend on the processing

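Beside each count of members, the share of all genes or regions under the same setting is given in brackets. With an equal number of the widest peaks from each library (19772), which shortens the lists and selects by width at once, 2 of 41 members had fewer peaks in every cKO library (1.11%, against 18 and 19.0% in the report), 4 of 32 fewer distal peaks (2.31%, against 14), 0 of 34 fewer own-promoter peaks (0.338%, against 3) and 2 of 29 fewer distal peaks in Mesp1-Cre Ctrl (3.55%, against 6), and 2 and 6 regions were held by all Tbx1-Cre Ctrl and no cKO or no Mesp1-Cre Ctrl library (1.65% and 3.00%, against 27 and 28). Counts per 10000 peaks gave 7 (5.16%) and 6 (12.7%) members for all and for distal peaks in cKO, and 2 (2.27%) for own-promoter peaks and 6 (8.34%) for distal peaks in Mesp1-Cre Ctrl, near the report's 3 and 6. The widest peaks turned the cKO difference to 0.333 higher at Col4a4, 0.667 at Lama1 and 0.333 at Lama3, and the Mesp1-Cre difference to 0.667 higher at Itgb4. Scaling turned Col4a2 to 0.0194 and Lama1 to 0.0523 higher in cKO. Promoters of 2 kb gave 7 members with fewer own-promoter peaks in cKO (4.49%) and turned the Itga9 difference to -0.333 in Mesp1-Cre Ctrl, and windows of 50 kb gave 13 with fewer distal peaks in Mesp1-Cre Ctrl (11.1%). For the turned values the cause was not tested. Windows of 10 kb, any overlap, gene 5′ ends alone and neighbouring promoters counted as distal kept every count within 1.5 times. No alternative of list length was run for promoter width.

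Leaving out 1 library at a time gave 18 to 25 members with fewer peaks in cKO (20.4% to 30.9%), 14 to 24 with fewer distal peaks (21.5% to 32.2%), 3 to 9 with fewer own-promoter peaks (4.21% to 6.91%), and 6 to 17 with fewer distal peaks in Mesp1-Cre Ctrl (10.2% to 22.2%). It gave 31 to 48 regions of all Tbx1-Cre Ctrl and no cKO library (8.43% to 15.8%) and 29 to 48 of no Mesp1-Cre Ctrl library (6.13% to 11.2%). By alternatives chosen after seeing the data, 1 to 4 members had fewer own-promoter peaks in Mesp1-Cre Ctrl (1.80% to 3.92%) and 1 had more in each case (0.398% to 0.943%), and narrower promoter peaks were found at 13 to 19 members in cKO (42.4% to 53.9%) and 10 to 14 in Mesp1-Cre Ctrl (19.5% to 38.1%), and at 13 (42.4%) and 11 (19.3%) by summed width. Fewer libraries make a separation easier, so these counts can only rise. With the replicate block, that is, same-numbered libraries taken as pairs, 20 members had fewer peaks in cKO (28.8%), 15 fewer distal peaks (28.5%), 6 fewer own-promoter peaks (4.94%), 14 fewer distal peaks in Mesp1-Cre Ctrl (16.7%), 20 a narrower promoter in cKO (56.4%) and 14 in Mesp1-Cre Ctrl (37.5%), and 3 pairs cannot give an exact p below 0.25.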
